A study of Mus musculus with 2 samples.

Results

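The genes examined here are 10 transcription factors that lay down and maintain the lineages of the lung: Nkx2-1, Foxa1, Foxa2, Irx1, Irx2, Cebpa, Gata6, Foxf1, Tcf21 and Tbx4. They were taken by symbol from the deposited gene tables, where each had 1 row among 27998 genes. The cells came from lungs of C57Bl6 mice that received bleomycin, which injures the lung and leads to fibrosis, on day 1. The navitoclax group was then given navitoclax (ABT-263), an inhibitor of anti-apoptotic BCL-2 family proteins, from day 15 to day 20, and the vehicle group was given vehicle. Both groups were harvested on day 21, so both carry the injury and neither is an uninjured lung. Sorted epithelial and stromal cells were joined in equal parts for droplet sequencing, and each group has 1 library. The sources used here do not give the age, sex or number of the mice.

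As background, NKX2-1 marks the respiratory endoderm and is needed for alveolar epithelial identity and surfactant gene expression. FOXA1 and FOXA2 are winged-helix factors that open chromatin in endoderm-derived epithelium. IRX1 and IRX2 are Iroquois homeodomain proteins encoded side by side in one gene cluster. CEBPA is a leucine-zipper factor of differentiated alveolar type II (AT2) cells, and GATA6 is a zinc-finger factor of both epithelium and mesenchyme. FOXF1 is a Hedgehog-responsive factor of lung mesenchyme, TCF21 a helix-loop-helix factor of lipid-storing alveolar fibroblasts, and TBX4 a T-box factor whose gene is switched on in embryonic lung mesenchyme.

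The analysis used 6228 cells of the navitoclax library and 7174 of the vehicle library, with a median of 12588 and 10483 unique molecular identifiers (UMIs) per cell. Cells were assigned to classes by a per-cell gate on marker genes that holds none of the 10 factors. The gate gave 2371 navitoclax and 2618 vehicle AT2-like cells. The other epithelial classes held 30 and 97 AT1-like cells, 62 and 63 transitional-like cells, 341 and 336 ciliated-like cells, and 59 and 88 club and secretory-like cells. Among stromal cells it gave 1670 and 2211 alveolar, 360 and 403 adventitial, 180 and 146 peribronchial and 261 and 255 fibrotic fibroblast-like cells, 47 and 61 smooth muscle and pericyte-like cells, and 30 and 60 mesothelial-like cells. The classes were gated on these same markers, so marker levels by class are no independent check of the class names. Most markers were highest in their own class, among them 7 of 7 AT2 and 8 of 8 AT1 markers. The exceptions were Krt19 and Itgb6 of 8 transitional markers, Ces1d and Gpc3 of 7 alveolar fibroblast markers, Dpp4 of 7 adventitial markers and Postn of 6 fibrotic markers. Of the fibrotic fibroblast-like cells, 58 navitoclax and 77 vehicle cells lay near the limit of the gate. The libraries shared 20 cell barcodes. Levels are given as CPM, the UMIs of a gene scaled to the summed UMIs of the class, and intervals are exact 95% intervals that cover counting error only. With 1 library per group there is no replicate check of any difference between treatments and no p-value is given. In a droplet library, RNA from broken cells also enters other droplets: the AT2 surfactant gene Sftpc was found in fibroblasts at 1.54% of its AT2-like level in the navitoclax library and 1.26% in the vehicle library.

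Promoter windows from RefSeq (GRCm38.p6), reaching from 250 bases before to 50 bases after a transcription start, were matched for 7 of the 10 genes. Shown here are those of Irx2 and Cebpa, which lay higher and lower in AT2-like cells of the navitoclax library, and those of Foxa1 and Tcf21, which carry a core motif of a factor of the set. Capitals mark the motif found, on either strand.
Cebpa (chr7:35119043-35119342, plus strand): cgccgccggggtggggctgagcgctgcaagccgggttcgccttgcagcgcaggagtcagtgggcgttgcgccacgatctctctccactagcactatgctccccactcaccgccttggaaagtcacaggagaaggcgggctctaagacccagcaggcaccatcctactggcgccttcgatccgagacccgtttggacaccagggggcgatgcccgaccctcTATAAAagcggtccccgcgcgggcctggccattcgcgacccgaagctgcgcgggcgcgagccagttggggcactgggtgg
Irx2 (chr13:72628570-72628869, plus strand): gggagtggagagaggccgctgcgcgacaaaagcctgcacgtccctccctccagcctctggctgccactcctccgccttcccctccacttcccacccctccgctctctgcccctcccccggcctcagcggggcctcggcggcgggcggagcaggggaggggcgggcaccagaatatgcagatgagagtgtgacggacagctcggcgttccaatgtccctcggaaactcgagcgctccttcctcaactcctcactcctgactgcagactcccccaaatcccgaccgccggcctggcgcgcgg
Foxa1 (chr12:57546062-57546361, minus strand): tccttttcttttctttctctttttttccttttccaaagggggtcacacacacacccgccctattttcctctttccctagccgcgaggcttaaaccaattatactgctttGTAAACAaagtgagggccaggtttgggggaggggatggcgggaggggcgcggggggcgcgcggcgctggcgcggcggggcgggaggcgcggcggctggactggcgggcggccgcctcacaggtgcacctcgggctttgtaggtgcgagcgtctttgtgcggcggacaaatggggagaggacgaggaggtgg
Tcf21 (chr10:22820094-22820393, minus strand): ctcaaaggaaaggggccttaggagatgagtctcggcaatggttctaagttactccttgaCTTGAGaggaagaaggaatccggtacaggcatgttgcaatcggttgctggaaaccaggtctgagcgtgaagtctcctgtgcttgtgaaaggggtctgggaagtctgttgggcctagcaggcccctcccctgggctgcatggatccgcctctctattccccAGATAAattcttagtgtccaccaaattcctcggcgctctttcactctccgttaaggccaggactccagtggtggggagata
The Cebpa window holds a TATA box (TATAAA) at -30 from the start, a motif present in 13.6% of 32851 promoter windows of this length. The Foxa1 window holds the FOXA core TGTTTAC, read on the opposite strand, at -141, which 3.6% of windows hold. The Tcf21 window holds a GATA core (AGATAA) at -31 and an NKX2-1 core (CTCAAG or CACTTGA, here read on the opposite strand) at -191, present in 11.2% and 17.6% of windows. The Irx2 window held none of the 6 motifs searched. The other motifs were the CEBP core TTGCNNAA, in 10.8% of windows, and the heat shock element core GAANNTTC, in 7.9%, neither of which was found in any window of these genes. One Foxa2 window held a GATA core, an NKX2-1 core and a TATA box, and the Tbx4 window a TATA box. These are letter matches and not measured binding sites.

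The 10 genes lie on 8 chromosomes of the GRCm38 assembly, with positions from GENCODE release M21. Irx1 (chr13:71957921-71963723, minus strand) and Irx2 (chr13:72628820-72634198, plus strand) are 665 kb apart. Nkx2-1 (chr12:56531958-56536908, minus strand) and Foxa1 (chr12:57540628-57546916, minus strand) are separated by 1004 kb. Foxa2 lies at chr2:148042877-148046969 on the minus strand, Cebpa at chr7:35119293-35121928 on the plus strand and Tcf21 at chr10:22817281-22820174 on the minus strand. Foxf1 lies at chr8:121084386-121088144, Tbx4 at chr11:85886422-85916097 and Gata6 at chr18:11052064-11085635, all 3 on the plus strand.

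The 10 factors divided by compartment. Nkx2-1, Foxa1, Foxa2, Irx1, Irx2 and Cebpa were carried by epithelial cells, Foxf1, Tcf21 and Tbx4 by stromal cells, and Gata6 by both. Epithelial over stromal level was 38.3-fold in the navitoclax and 40.7-fold in the vehicle library for Nkx2-1, 34.1-fold and 48.7-fold for Foxa2, 28.7-fold and 47.2-fold for Foxa1, 36.3-fold and 48.3-fold for Irx1, 38.3-fold and 43.8-fold for Irx2, and 13.6-fold and 18.3-fold for Cebpa. In the other direction, the epithelial level was 0.00301 and 0.00308 of the stromal level for Tcf21, 0.00434 and 0.00372 for Tbx4, and 0.00218 and 0.00645 for Foxf1. The Foxf1 values rest on 6 and 18 epithelial UMIs. Gata6 alone among the 10 stayed within 5-fold, at 1.83 (1.70 to 1.98) and 1.55 (1.45 to 1.66). Among genes with at least 20 UMIs, 11.1% were at least 5-fold higher in epithelial cells in both libraries and 14.0% at least 5-fold lower, against 6 and 3 of the 10 factors. These compartment ratios depend on the removal of doublets: with doublets kept, the Nkx2-1 ratio was 13.4 and 12.1, and the other epithelial factors were between 8.03 and 15.5, each still past 5-fold.

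**Figure D1:**
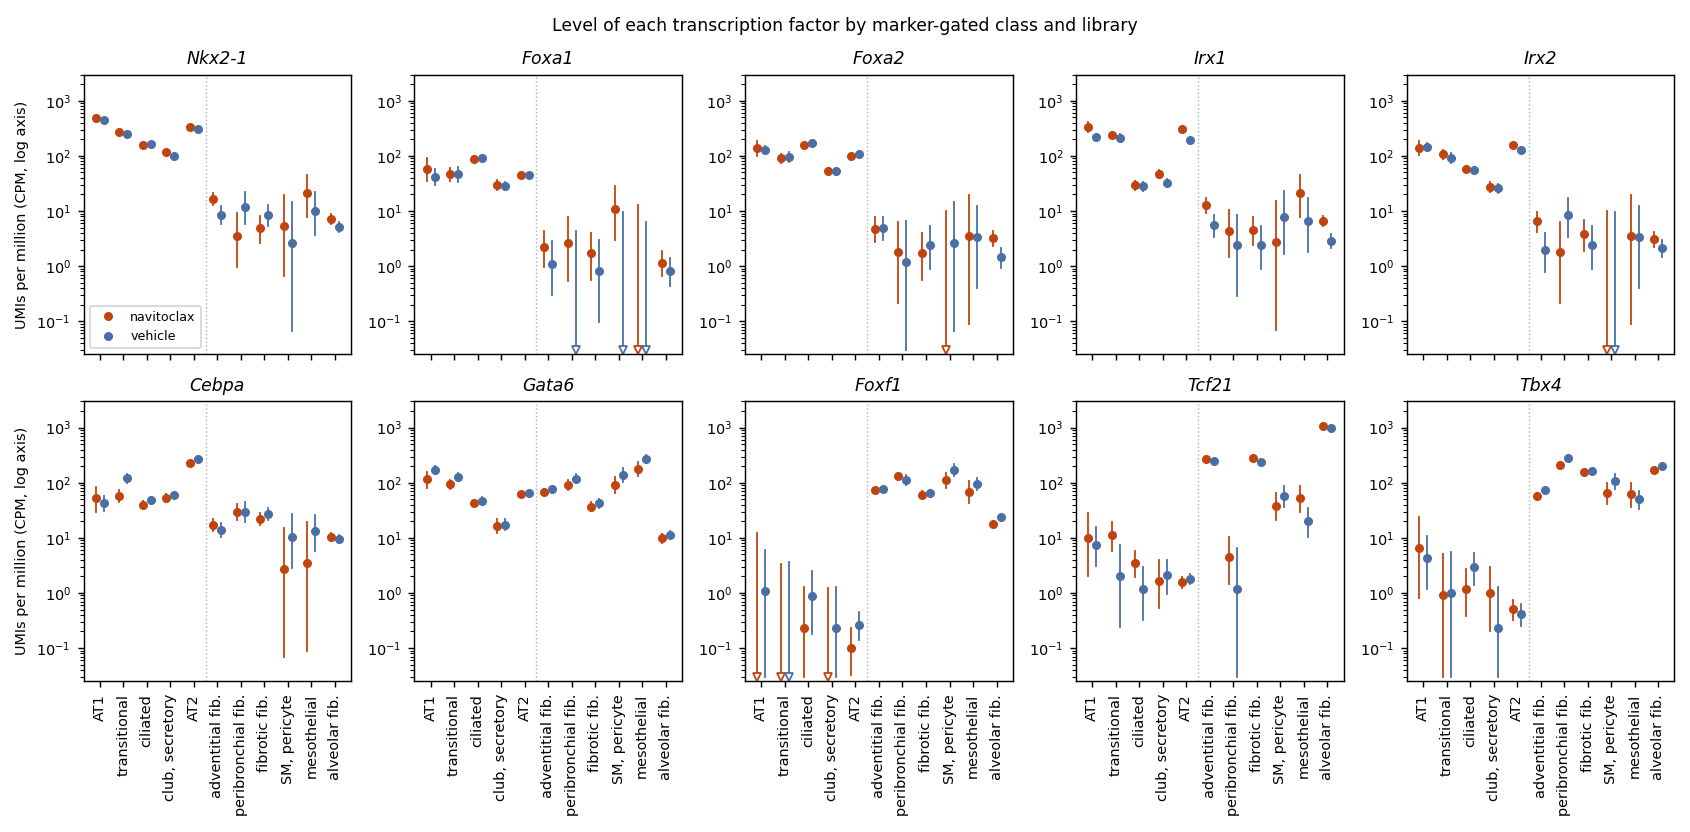
Level of each factor (CPM, log scale) by marker-gated class, navitoclax left of vehicle, with exact 95% Poisson intervals; open triangles mark a class without a UMI, and the dotted line parts epithelial from stromal classes. Nkx2-1 lies at 333 and 311 CPM in AT2-like cells and Tcf21 at 1057 and 969 CPM in alveolar fibroblast-like cells, and Gata6 is above 9 CPM in both compartments.

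Nkx2-1, the endodermal lung factor, was detected in each of the 5 epithelial classes. AT1-like cells were at 479 (405 to 564) in the navitoclax and 442 CPM (400 to 487) in the vehicle library, transitional-like cells at 272 and 254, ciliated-like cells at 160 and 161, and club and secretory-like cells at 118 and 98.6. AT2-like cells held 16592 Nkx2-1 UMIs in the navitoclax library, or 333 CPM (328 to 338), and 15132 in the vehicle library, or 311 CPM (306 to 316). The order of classes, AT1-like, AT2-like, transitional-like, ciliated-like and then club and secretory-like, was the same in both libraries. Part of this order depends on what else the cells make: the 50 most abundant genes took 68.1% of navitoclax and 71.2% of vehicle UMIs in club and secretory-like cells and 49.8% and 49.4% in AT2-like cells. With those genes taken out of the totals, AT1-like over AT2-like was 1.10 and 1.05 in place of 1.44 and 1.42, and club and secretory-like over AT2-like was 0.555 and 0.558 in place of 0.353 and 0.317. Ciliated-like over AT2-like was 0.308 and 0.339 in place of 0.481 and 0.519, so the end of the order turned: club and secretory-like over ciliated-like was 1.80 and 1.65 in place of 0.734 and 0.611. Thinned to 2000 UMIs per cell, 47.5% and 46.0% of AT2-like cells had an Nkx2-1 UMI (98.9% and 97.7% unthinned), against 1.26% and 1.29% of fibroblasts (4.62% and 4.17% unthinned), whose level is near the free-RNA scale.

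Foxa1 and Foxa2, paralogs that bind a shared motif, stood higher by CPM in ciliated-like than in AT2-like cells. Foxa1 in ciliated-like cells stood at 88.4 CPM (79.7 to 97.8) in the navitoclax and 91.1 CPM (81.3 to 102) in the vehicle library, and club and secretory-like cells at 29.4 and 28.8 CPM, against 44.5 and 45.3 CPM in AT2-like cells. Foxa2 was at 156 and 172 CPM in ciliated-like, 138 (99.4 to 186) and 129 (107 to 154) in AT1-like, 90.0 and 95.9 in transitional-like, 52.1 and 52.2 in club and secretory-like and 98.2 and 106 CPM in AT2-like cells. The ciliated-like excess over AT2-like cells was 1.98 and 2.01 for Foxa1 and 1.59 and 1.62 for Foxa2. It shrank to 1.27 and 1.31, and to 1.02 and 1.06, once the top 50 genes of each class were left out of the totals. Club and secretory-like over AT2-like turned for Foxa1, to 1.04 and 1.12 in place of 0.660 and 0.634. AT1-like over AT2-like for Foxa2 was 1.07 and 0.895 in place of 1.40 and 1.21. Neither factor was called higher at 2-fold in both libraries, where 33.2% of genes were.

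The Iroquois genes were highest in the alveolar classes. Irx1 was at 338 (276 to 410) in navitoclax and 218 CPM (189 to 250) in vehicle AT1-like cells, and at 239 and 214 CPM in transitional-like cells. It was at 29.4 and 27.9 CPM in ciliated-like cells and 46.5 and 32.2 CPM in club and secretory-like cells. AT2-like cells were at 311 (306 to 316) and 194 CPM (190 to 198). Irx2 had 141 and 147 CPM in AT1-like, 108 and 92.9 in transitional-like, 56.9 and 55.6 in ciliated-like, 27.4 and 26.0 in club and secretory-like and 157 and 128 CPM in AT2-like cells. Ciliated-like over AT2-like was 0.0945 and 0.144 for Irx1 and 0.363 and 0.433 for Irx2. The ratio was lower for Irx1 in each library, and the difference between the paralogs was not tested. Irx1, Irx2 and Cebpa passed 2-fold lower in ciliated-like cells, as did 10.6% of genes, and these 3 with Nkx2-1 and Gata6 did so in club and secretory-like cells, as did 28.5% of genes.

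Cebpa separated AT2-like cells from every other epithelial class. AT1-like cells were at 52.5 (30 to 85.3, 16 UMIs) in the navitoclax and 43.0 CPM (30.7 to 58.5, 40 UMIs) in the vehicle library. Transitional-like cells were at 57.5 (44.1 to 73.8) and 120 CPM (99.6 to 144), ciliated-like cells at 40.0 and 48.0, and club and secretory-like cells at 53.5 and 58.9 CPM, against 224 (220 to 228) and 274 CPM (269 to 279) in AT2-like cells. Cebpa was the 1 factor lower by 2-fold in AT1-like than AT2-like cells in both libraries, at 0.234 (0.134 to 0.381) and 0.157 (0.112 to 0.214), where 2.02% of genes were. The same held for transitional-like over AT2-like cells, at 0.257 (0.197 to 0.329) and 0.438 (0.363 to 0.525), where 2.37% of genes were lower. AT1-like over transitional-like was 0.913 (0.492 to 1.60) in the navitoclax and 0.358 (0.243 to 0.516) in the vehicle library, and no factor passed 2-fold in both, where 3.89% of genes were higher and 2.07% lower. AT1-like and transitional-like cells also held Sftpc, at 77718 and 38839 CPM in AT1-like and 89162 and 104299 CPM in transitional-like cells, against 232966 and 224670 CPM in AT2-like cells. The part of AT2 RNA in their Cebpa level was not tested.

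By CPM, Gata6 ran the other way along the alveolus. AT1-like cells were at 115 (80.0 to 160) and 170 CPM (144 to 198), transitional-like cells at 93.7 and 128, and AT2-like cells at 61.9 and 64.6 CPM. AT1-like over AT2-like was 1.85 (1.29 to 2.59) in the navitoclax and 2.63 (2.23 to 3.09) in the vehicle library, and 1.42 and 1.94 without the top genes. This is short of 2-fold in the navitoclax library, and no call was made. Transitional-like over AT2-like was 1.51 in the navitoclax and 1.99 in the vehicle library, and 1.11 and 1.54 without the top genes. AT1-like over transitional-like was 1.23 (0.810 to 1.82) in the navitoclax library, where the interval includes 1. It was 1.32 (1.04 to 1.69) in the vehicle library. Tcf21 and Tbx4 passed the 2-fold rule for AT1-like over AT2-like cells, as did 9.52% of genes, but on 3 and 7 UMIs for Tcf21 and 2 and 4 for Tbx4 in AT1-like cells.

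**Figure D2:**
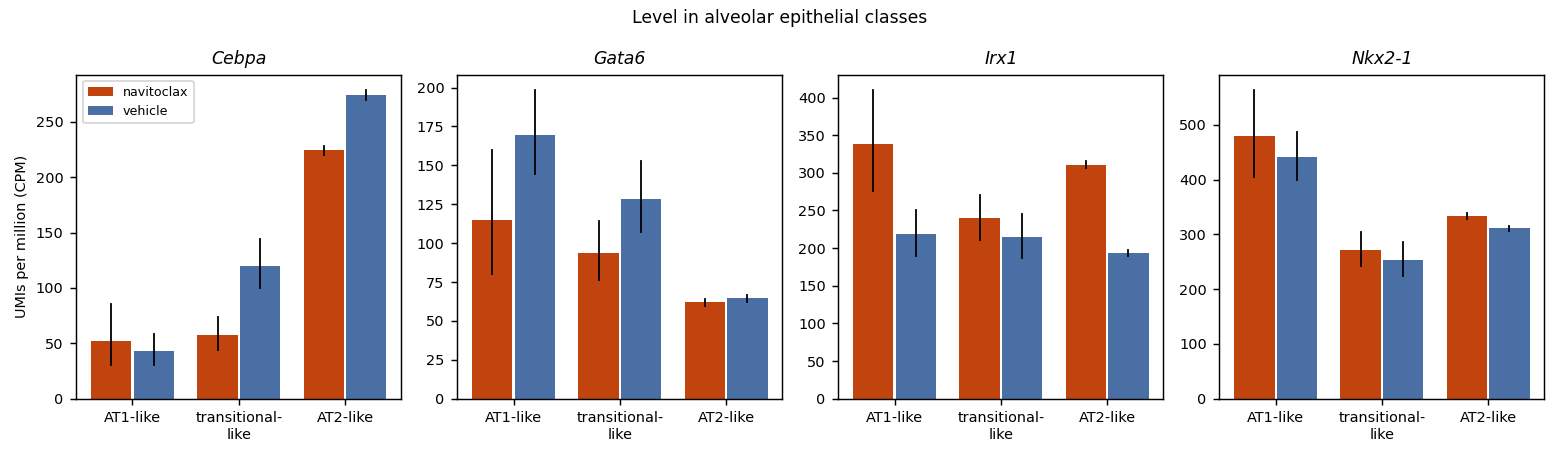
Level (CPM) of Cebpa, Gata6, Irx1 and Nkx2-1 in AT1-like, transitional-like and AT2-like cells, navitoclax bars left of vehicle bars, with exact 95% Poisson intervals as lines. Cebpa is low outside AT2-like cells, at 52.5 and 43.0 CPM in AT1-like against 224 and 274 CPM in AT2-like cells, and Gata6 lies higher in AT1-like cells.

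In the stroma, Tcf21 was highest in alveolar fibroblasts and at the level of AT2-like cells in peribronchial fibroblasts. It was at 282 CPM in navitoclax and 239 CPM in vehicle fibrotic fibroblast-like cells, at 266 and 253 in adventitial and at 4.42 and 1.19 CPM in peribronchial fibroblast-like cells, the last on 5 and 1 UMIs. Alveolar fibroblast-like cells held 13702 UMIs, or 1057 CPM, in the navitoclax and 15474 UMIs, or 969 CPM, in the vehicle library. Thinned to 2000 UMIs per cell, 40.9% of navitoclax and 34.1% of vehicle fibrotic fibroblast-like cells had a Tcf21 UMI, as did 40.4% and 35.8% of adventitial and 0.581% and 0.694% of peribronchial fibroblast-like cells (72.0% and 63.5%, 83.9% and 76.4%, and 2.78% and 0.685% unthinned). The share was 75.8% (73.5 to 77.9) and 73.1% (71.2 to 75.1) in alveolar fibroblast-like cells (90.1% and 89.4% unthinned). In AT2-like cells, an epithelial class, it was 0.254% and 0.307%, near that of peribronchial fibroblast-like cells. Tcf21 was lower than in alveolar fibroblast-like cells by at least 2-fold in each of the other stromal classes in both libraries, where 7.65% of genes were for adventitial, 6.64% for peribronchial, 2.35% for fibrotic, 5.28% for smooth muscle and pericyte-like and 7.55% for mesothelial-like cells.

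Foxf1 and Gata6 showed the opposite order. Foxf1 was at 131 CPM in navitoclax and 113 CPM in vehicle peribronchial fibroblast-like cells, 72.7 and 75.8 in adventitial, 61.3 and 64.0 in fibrotic fibroblast-like, 112 and 172 in smooth muscle and pericyte-like, and 69.3 and 95.8 CPM in mesothelial-like cells, against 18.0 and 24.0 CPM in alveolar fibroblast-like cells. Gata6 was at 68.7 and 77.7 in adventitial, 91.9 and 119 in peribronchial and 36.8 and 42.8 in fibrotic fibroblast-like cells, 92.7 and 140 in smooth muscle and pericyte-like cells, and 180 (135 to 236) and 271 CPM (230 to 316) in mesothelial-like cells, against 9.80 and 11.4 CPM in alveolar fibroblast-like cells. Both factors were at least 2-fold higher than in alveolar fibroblast-like cells in each of these 5 classes in both libraries. The share of genes so called was 6.49% for adventitial, 5.69% for peribronchial, 4.51% for fibrotic, 4.63% for smooth muscle and pericyte-like and 7.87% for mesothelial-like cells. The largest of these ratios was that of Gata6 in mesothelial-like cells, at 18.4 and 23.7.

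Tbx4 followed neither pattern. It was highest in peribronchial fibroblast-like cells, at 213 (187 to 242) and 278 CPM (244 to 316), with 156 and 164 in fibrotic and 56.4 and 74.4 in adventitial fibroblast-like cells, against 174 and 200 CPM in alveolar fibroblast-like cells. Thinned to 2000 UMIs, 35.5% and 42.4% of peribronchial and 28.7% and 30.8% of alveolar fibroblast-like cells had a Tbx4 UMI (71.1% and 76.0%, and 62.9% and 66.8%, unthinned), against 0.0845% and 0.192% of AT2-like cells. Adventitial fibroblast-like cells, with a ratio to alveolar fibroblast-like cells of 0.324 and 0.372, and mesothelial-like cells, with 0.359 and 0.252, passed 2-fold lower. Peribronchial fibroblast-like cells therefore carried Tbx4, Foxf1 and Gata6 with Tcf21 near its level in AT2-like cells. Alveolar fibroblast-like cells carried Tcf21 and Tbx4 with little Foxf1 and Gata6. Fibrotic and adventitial fibroblast-like cells both lay between these classes in Tcf21, Foxf1 and Gata6, so this position is not particular to the fibrotic class. Cebpa was also above the alveolar fibroblast-like level, 2.86-fold and 3.13-fold in peribronchial and 2.10-fold and 2.82-fold in fibrotic fibroblast-like cells, at 30.1 and 29.8 and at 22.0 and 26.9 CPM.

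**Figure D3:**
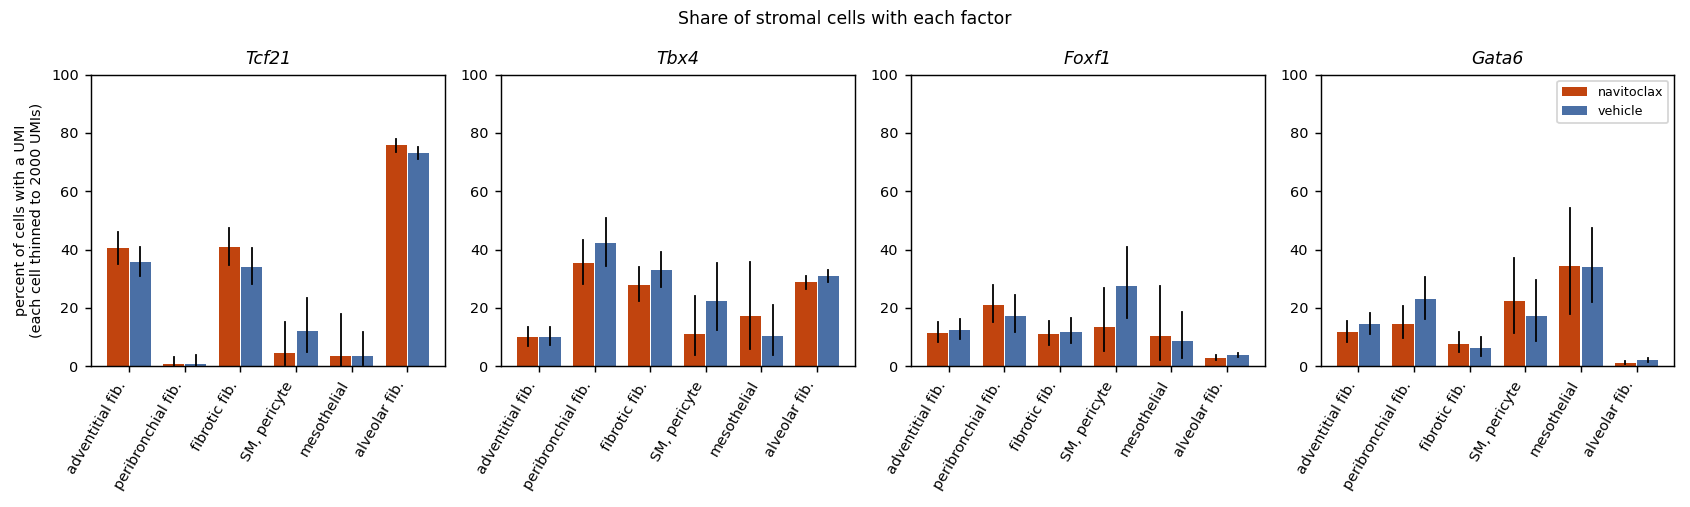
Share of cells (percent, after thinning each cell to 2000 UMIs) with a UMI of Tcf21, Tbx4, Foxf1 or Gata6 in the stromal classes, navitoclax bars left of vehicle bars, with Clopper-Pearson 95% intervals as lines. Tcf21 stands at 0.581% and 0.694% in peribronchial against 75.8% and 73.1% in alveolar fibroblast-like cells.

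Between treatments, Irx1 was the factor that differed most in AT2-like cells. The navitoclax over vehicle ratio was 1.60 (1.56 to 1.65) for Irx1 and 1.22 (1.18 to 1.26) for its neighbour Irx2, while Cebpa was lower at 0.818 (0.798 to 0.839). Nkx2-1 was at 1.07 (1.05 to 1.10) and Foxa2 at 0.925 (0.889 to 0.962). The intervals of Foxa1, Gata6, Tcf21 and Tbx4 included 1. Irx1 was the 1 of 9 factors with at least 20 UMIs that passed 1.5-fold, where 7.80% of 13225 genes did. The interval left out 1 for 5 of the 9, 3 above and 2 below, where 29.7% of genes had such an interval, 15.8% above and 13.9% below. The median log2 ratio over the 9 was -0.03, against 0.00 over the genes tested. AT2-like cells were of similar depth in the libraries, with a median of 19825 and 18066.5 UMIs.

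The Irx1 difference was spread over the cells rather than carried by a few. With each AT2-like cell thinned to 5000 UMIs, 26.5% of 2328 navitoclax cells and 41.5% of 2550 vehicle cells had no Irx1 UMI, and 22.6% and 9.57% had 3 or more. For Cebpa, 35.2% and 28.4% had none and 11.7% and 17.8% had 3 or more. For Irx2, 49.7% and 54.0% had none. An Irx2 UMI was found in 52.0% of Irx1-positive and 45.7% of Irx1-negative cells of the navitoclax library, and in 46.8% and 44.8% of the vehicle library. At 2000 UMIs per cell, 44.0% (42.0 to 46.1) of navitoclax and 32.2% (30.4 to 34.1) of vehicle AT2-like cells had an Irx1 UMI (97.1% and 90.7% unthinned), against 1.18% and 0.643% of fibroblasts. Within 3 equal groups of AT2-like cells by depth, the Irx1 ratio ran from 1.58 to 1.68, and within 5 clusters of AT2-like cells from 1.31 to 1.74, with the interval above 1 in each. The clusters held different shares of the libraries, the most uneven being cluster 1 with 373 navitoclax and 946 vehicle cells, where the Irx1 ratio was 1.51 (1.43 to 1.60). Cebpa ran from 0.800 to 0.871 in the depth groups and from 0.806 to 0.870 in the clusters, with the interval below 1 in each. Irx2 ran from 1.20 to 1.31 in the depth groups and from 1.03 to 1.26 in the clusters, where 4 of 5 intervals lay above 1.

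**Figure D4:**
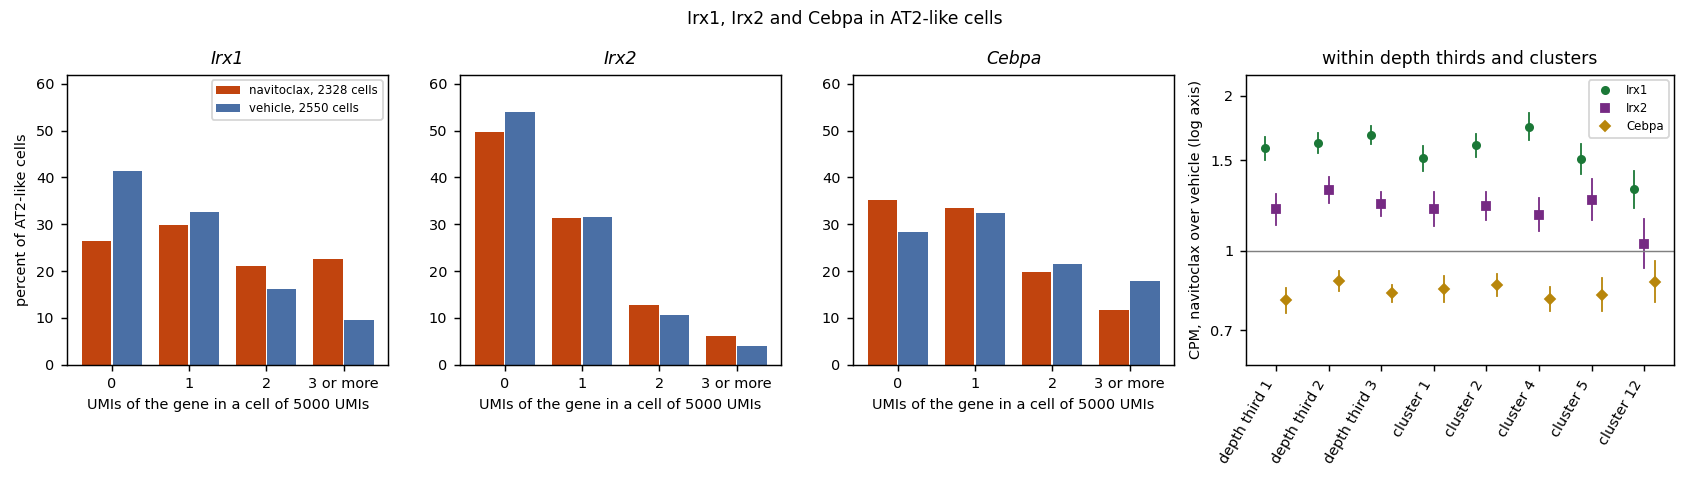
Share of AT2-like cells (percent) by number of UMIs of Irx1, Irx2 and Cebpa after thinning to 5000 UMIs per cell, navitoclax bars left of vehicle bars, and at right the navitoclax over vehicle ratio (log axis) of each gene within depth groups and clusters with 95% counting intervals. For Irx1 the navitoclax library has fewer cells without a UMI, 26.5% against 41.5%, and for Cebpa more, 35.2% against 28.4%.

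The smaller epithelial classes held fewer UMIs and wider intervals. Irx1 was higher in navitoclax AT1-like cells at 1.55 (1.21 to 1.97) and Gata6 lower at 0.677 (0.455 to 0.981). Sftpc in these cells was at 77718 CPM in the navitoclax and 38839 CPM in the vehicle library, and the part of AT2 RNA in both ratios was not tested. Of 7 factors tested in AT1-like cells, 1 passed 1.5-fold and 2 intervals left out 1, where 26.8% and 9.99% of genes did. In transitional-like cells Cebpa stood at 0.479 (0.346 to 0.656) and Gata6 at 0.731 (0.557 to 0.957). Thinned to 2000 UMIs per cell these ratios were 0.757 and 0.984, so their size is not fixed by these libraries. Of 7 factors there, 1 passed 1.5-fold and 2 intervals left out 1, where 19.2% and 12.8% of genes did. None of 7 factors passed 1.5-fold or had an interval that left out 1 in ciliated-like cells, where 8.21% and 11.3% of genes did. In club and secretory-like cells Irx1 was at 1.44 (1.13 to 1.84) and Nkx2-1 at 1.19 (1.03 to 1.38), the 2 of 7 whose intervals left out 1, as did 14.9% of genes. None there passed 1.5-fold, as 18.4% of genes did, and the thinned ratios of both were below 1, at 0.870 for Nkx2-1 and 0.746 for Irx1. Sftpc in club and secretory-like cells was at 11899 and 7475 CPM, and its part in these ratios was not tested.

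**Figure D5:**
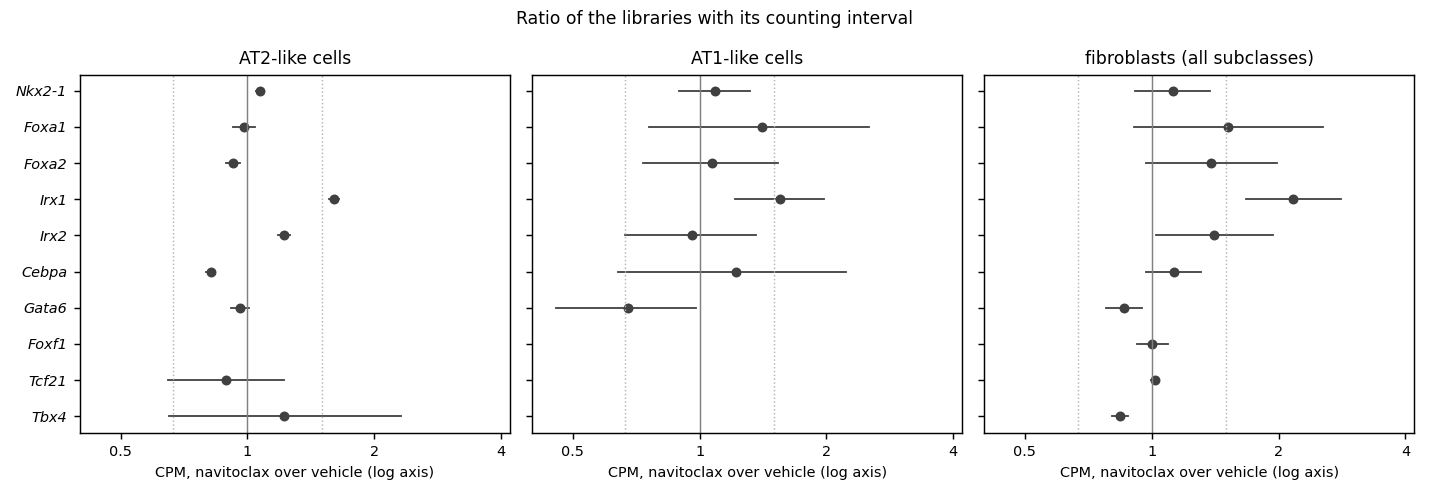
Navitoclax over vehicle ratio of CPM (log scale) for each factor with at least 20 UMIs in AT2-like cells, AT1-like cells and pooled fibroblasts, with conditional exact 95% counting intervals; the solid line marks 1 and the dotted lines 1.5-fold. Irx1 lies at 1.60 and Cebpa at 0.818 in AT2-like cells, and Tbx4 at 0.840 in fibroblasts.

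In pooled fibroblasts, Tbx4 and Gata6 were lower in the navitoclax library, by less than 1.5-fold. Pooled fibroblasts had 148 and 176 CPM of Tbx4, a ratio of 0.840 (0.805 to 0.877). By subclass the ratio was 0.869 (0.823 to 0.918) in alveolar, 0.758 (0.628 to 0.914) in adventitial and 0.766 (0.637 to 0.921) in peribronchial fibroblast-like cells, and 0.951 (0.829 to 1.09) in fibrotic fibroblast-like cells, where the interval includes 1. Thinned to 2000 UMIs per cell, the Tbx4 ratio was 0.934 in pooled and 0.943 in adventitial fibroblasts. Gata6 stood at 0.859 (0.779 to 0.947) in pooled fibroblasts. Its ratio was 0.860 (0.680 to 1.08) in alveolar and 0.88 (0.742 to 1.05) in adventitial fibroblast-like cells. It was 0.770 (0.580 to 1.02) in peribronchial and 0.861 (0.652 to 1.14) in fibrotic fibroblast-like cells. Each of these subclass intervals includes 1. Tcf21 was at 1.02 (0.995 to 1.04) in pooled fibroblasts and 1.05 (0.959 to 1.15) in adventitial fibroblast-like cells, where the intervals include 1, and at 1.09 (1.07 to 1.12) in alveolar and 1.18 (1.06 to 1.31) in fibrotic fibroblast-like cells. Foxf1 was at 0.750 (0.634 to 0.884) in alveolar fibroblast-like cells, and its level over pooled fibroblasts was 43.4 CPM in the navitoclax and 43.2 CPM in the vehicle library. In smooth muscle and pericyte-like cells Foxf1 was at 0.650 (0.429 to 0.976), the 1 interval of 4 to leave out 1, as 9.40% did, while 4 of 4 factors passed 1.5-fold, as 23.4% of genes did. Thinned to 2000 UMIs the Foxf1 ratio was 0.412 and that of Gata6 there turned to 1.19. The Tcf21 ratio, 0.656 on 14 and 22 UMIs, was 0.258 after thinning. That of Tbx4 turned from 0.603 to 1.15 with clusters in place of the gate, so these sizes are not fixed either. In mesothelial-like cells Gata6 stood at 0.666 (0.477 to 0.915), or 0.932 after thinning. Tcf21 there was at 2.58 (1.13 to 6.03), a value that rests on 1 cell with 12 of 15 UMIs and was 0.785 without the highest cell. These were the 2 of 4 past 1.5-fold and the 2 intervals, where 23.5% and 8.29% of genes were.

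The epithelial factors also had ratios above 1 in pooled fibroblasts, at levels near the free-RNA scale. Irx1 was at 7.40 CPM in navitoclax and 3.42 CPM in vehicle fibroblasts, a ratio of 2.16 (1.68 to 2.80), and Irx2 at 1.40 (1.02 to 1.94), or 2.68 after thinning. As a share of the AT2-like level, Irx1 in fibroblasts stood at 2.38% and 1.77%, Irx2 at 2.37% and 2.06% and Nkx2-1 at 2.38% and 2.27%, beside 1.54% and 1.26% for Sftpc and 1.56% and 1.25% for Sftpa1. Cebpa was further from that scale, at 6.46% and 4.68%. Over pooled fibroblasts, Irx1 and Foxa1 were the 2 of 10 factors past 1.5-fold, where 7.01% of genes were, and Foxa1 was at 0.844 as a mean over cells. The interval left out 1 for 4 of 10, where 28.8% did, and lay above 1 for Irx1 and Irx2 and below 1 for Gata6 and Tbx4, as for 15.1% and 13.8% of genes. In alveolar fibroblast-like cells 2 of 10 were past 1.5-fold, Irx1 at 2.33 (1.61 to 3.41) and Foxa2 at 2.25 (1.32 to 3.92), where 7.25% of genes were, and 6 intervals left out 1, where 23.5% did. Nkx2-1 there was at 1.40 (1.03 to 1.90), and its direction turned with doublets kept. Adventitial fibroblast-like cells had 3 of 9 past 1.5-fold, Irx1 at 2.27, Irx2 at 3.32 and Nkx2-1 at 1.92 (1.15 after thinning), where 9.94% of genes were, and 4 intervals, where 14.8% did. Sftpc in that class was at 7301 and 6062 CPM, and its part in these ratios was not tested. Of 4 factors in peribronchial fibroblast-like cells none was past 1.5-fold and 1 interval left out 1, where 16.5% and 9.20% of genes did. Of 6 in fibrotic fibroblast-like cells 1 was past 1.5-fold and 1 interval left out 1, where 10.9% and 11.2% did. The 1 past 1.5-fold was Nkx2-1, which was lower in the navitoclax library at 0.564 (0.265 to 1.16), on 14 and 21 UMIs.

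Other genes of these programmes were read from 4 lists. Of 26 other transcription factors of lung epithelium, 23 had at least 20 UMIs in AT2-like cells. Of these, 2 were at least 1.5-fold higher in the navitoclax library, as were 5.60% of genes, and none at least 1.5-fold lower, 5 intervals lay above 1 and 9 below, as for 15.8% and 13.9% of genes, and the median log2 ratio was -0.03. Foxj1, the regulator of motile cilia, was at 2.62 (1.95 to 3.56) on 169 and 63 UMIs, at 3.40 and 1.29 CPM in AT2-like against 944 and 815 CPM in ciliated-like cells. Sox2, an airway progenitor factor, was at 1.52 (1.17 to 1.98), on a level of 3.05 and 2.01 CPM. Foxj1 and Sox2 were the 2 past 1.5-fold, and the part of free RNA in their ratios was not tested. Foxj1 also helps to gate ciliated-like cells, and the part of the gate in its levels was not tested. Zbtb16, a zinc-finger repressor, was at 1.35 (1.15 to 1.58). Of 17 alveolar genes known as targets of NKX2-1, FOXA, CEBPA or GATA6, all 17 passed the minimum in AT2-like cells, none passed 1.5-fold, 8 intervals lay above 1 and 7 below, against the same 15.8% and 13.9% of genes, and the median was -0.01. These targets include surfactant and other abundant genes, whose intervals are narrow. Surfactant genes also help to gate AT2-like cells, Ager AT1-like cells and Scgb3a2 club and secretory-like cells. The part of the gate in the ratios of this list was not tested. Ager, the AT1 membrane receptor, was at 1.12 (1.11 to 1.13), Pon1, a serum esterase, at 0.891 (0.799 to 0.994) and Scgb3a2, an airway secretoglobin, at 0.882 (0.729 to 1.07). In transitional-like cells, 13 of the 15 alveolar targets that passed had intervals below 1, as did 4.27% of genes, and the median was -0.37, against 0.08 over the genes tested. That class held 62 navitoclax and 63 vehicle cells, with Sftpc at 89162 and 104299 CPM. The parts of AT2 RNA and of the gate were not tested. In ciliated-like cells, 7 of 16 intervals of the list lay below 1 and 1 above, where 11.3% of genes left out 1 in either direction. The median there was -0.21, against 0.01 over the genes tested, with Sftpc at 2132 CPM in the navitoclax and 3264 CPM in the vehicle library. In pooled fibroblasts the list went the other way, with 9 of 17 intervals above 1 and 4 below. Such intervals were found for 15.1% and 13.8% of genes, and the median of the list was 0.28. The part of free RNA in both sets of ratios was not tested.

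Of 26 other transcription factors of lung mesenchyme, 22 passed the minimum in pooled fibroblasts. Of them, 1 was at least 1.5-fold lower in the navitoclax library, as were 2.65% of genes, 4 intervals lay above 1 and 9 below, as for 15.1% and 13.8% of genes, and the median log2 ratio was -0.12, against 0.01 over the genes tested. Meox1, a homeobox factor of somites and fibroblasts, was at 0.632 (0.437 to 0.906), and Hoxa5, a patterning factor needed for lung development, at 0.758 (0.723 to 0.793). Gli2, a mediator of Hedgehog signalling, was at 1.42 (1.18 to 1.70). Of 15 signals and targets of the FOXF1, TCF21 and TBX4 mesenchyme, none passed 1.5-fold, 6 intervals lay above 1 and 5 below, against the same 15.1% and 13.8% of genes, and the median was -0.05. Itga5, a fibronectin receptor chain, was at 1.44 (1.20 to 1.72), Hhip, an inhibitor of Hedgehog ligands that also marks peribronchial fibroblasts, at 1.41 (1.35 to 1.47), and Fgf18, a growth factor of alveolar development, at 1.37 (1.21 to 1.55). Peribronchial fibroblast-like cells, which Hhip and Fgf18 help to gate, numbered 180 of 2985 fibroblasts in the navitoclax and 146 of 3570 in the vehicle library. The part of this class in the Hhip and Fgf18 ratios was not tested.

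Among genes within 50 kb of a factor, Gm11444 and Tbx2 beside Tbx4 and Mipol1 beside Foxa1 were lower in fibroblasts of the navitoclax library. Mipol1, Tbx2 and Gm20554, the last of which lies beside Irx2, were lower in its AT2-like cells. Over all genes tested, intervals lay below 1 for 13.8% in pooled fibroblasts and 13.9% in AT2-like cells. Gm11444 (chr11:85846790-85850333, 36.1 kb from Tbx4 on the opposite strand), an unnamed gene model annotated as protein-coding, had 934 UMIs, or 37.3 CPM, in navitoclax fibroblasts and 2164 UMIs, or 79.6 CPM, in vehicle fibroblasts. The ratio was 0.469 (0.434 to 0.507). It was 0.502 (0.458 to 0.549) in alveolar, 0.471 (0.312 to 0.704) in peribronchial and 0.505 (0.384 to 0.661) in fibrotic fibroblast-like cells, and 0.616 (0.359 to 1.04) in adventitial fibroblast-like cells, where the interval includes 1. Tbx2, the T-box paralog 44.5 kb away, was at 284 and 344 CPM in fibroblasts, a ratio of 0.824 (0.799 to 0.850), close to the 0.840 of Tbx4. In AT2-like cells Tbx2 was at 0.697 (0.495 to 0.976), on 62 navitoclax and 87 vehicle UMIs. Its level there was 1.25 CPM in the navitoclax and 1.79 CPM in the vehicle library, and the part of free RNA was not tested. Mipol1 had 98 UMIs, or 3.92 CPM, in navitoclax fibroblasts and 175 UMIs, or 6.44 CPM, in vehicle fibroblasts, a ratio of 0.609 (0.470 to 0.784). It was at 0.535 (0.370 to 0.763) in alveolar fibroblast-like and 0.814 (0.671 to 0.987) in AT2-like cells. Neighbours were taken by distance.

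Beside Foxf1, the noncoding Fendrr lies 1.3 kb away on the opposite strand and followed its classes, with 42.4 and 51.3 CPM in peribronchial and 3.16 and 4.01 CPM in alveolar fibroblast-like cells and 0.179 and 0.066 CPM in epithelial cells. Its ratio in pooled fibroblasts was 1.01 (0.861 to 1.19), and that of the forkhead gene Foxl1, 39.8 kb from Foxf1, was 1.00 (0.843 to 1.19). Foxc2 and Mthfsd, also within 50 kb of Foxf1, were at 1.30 (0.913 to 1.86) and 1.08 (0.909 to 1.28) in pooled fibroblasts. Gm20554, 0.3 kb from Irx2 on the opposite strand, had 53 and 78 UMIs in AT2-like cells and none in stromal cells of either library, a ratio of 0.664 (0.460 to 0.954) where that of Irx2 was 1.22. The antisense gene Gm26973, which overlaps Nkx2-1, had 26 and 28 UMIs in AT2-like cells, and 9030622O22Rik, 2.7 kb from Foxa2, had 53 and 43. The other neighbours with at least 20 UMIs were 4921506M07Rik near Foxa1, at 0.849 (0.685 to 1.05) in AT2-like cells, and 1010001N08Rik at the start of Gata6, at 0.910 (0.617 to 1.34) in AT2-like cells. Irx1, Cebpa and Tcf21 had no such neighbour. The sources used here do not give the counting settings, so reads of overlapping or antisense genes cannot be told apart with certainty.

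Genes with the most similar profile were sought over 16 profiles, 8 classes of 50 or more cells in each library, by Pearson's r of log2(CPM + 1) over 9428 genes. The profiles of a library share its free RNA and depth, and r is a description. Nkx2-1 was nearest to Tmem30b (0.995), Bend7 and Cblc, and Irx2 to Bend7 (0.983), Nkx2-1 itself (0.982) and Rbm47. Foxa1 and Foxa2 shared Prr15l and Il18r1 among their nearest genes, with Smim6 for Foxa1 and Tmem184a for Foxa2. Irx1 was nearest to Adgrf5 (0.978), Plekhd1 and Stap2, and Cebpa to Rap1gap (0.963), Ttc7 and Atp11a. In the mesenchyme, Foxf1 was nearest to Sulf1 (0.995), Rgs7bp and Nfatc4, Tcf21 to Fam198b (0.983), C7 and Tmem119, and Tbx4 to Fgf7, Ednra and Prkg1 (r between 0.992 and 0.994). Gata6, present in both compartments, had the weakest match, Mcm6 (0.920), then Ece1 and Atf3, and its r with the other 9 factors lay between -0.42 for Tcf21 and 0.39 for Cebpa. With a pseudocount of 10, at least 1 of the 3 nearest genes changed for each of the 10 factors, and the first of them for 6.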

How the data were processed

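The authors deposited raw UMI counts for each gene and barcode, made with a Chromium 3′ kit, per the labels. Cell Ranger 4.0.0 wrote the matrices, per the file headers, with mm10 as its genome, per the submitters' processing notes. The sources used here do not give further alignment or cell-calling settings. The navitoclax library held 8064 barcodes with 98517048 UMIs and the vehicle library 8784 with 97958947.

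A cell needed 500 genes and no more than 15% mitochondrial UMIs (18.1% and 13.8% of barcodes exceeded this), and Scrublet calls in scanpy 1.11.5 (expected rate 6%) removed 217 and 222 doublets. Free RNA was not subtracted. A cell was placed in a class where its marker score reached 0.45 and led the next class by 0.10. UMIs were summed per class and library. Levels had exact Poisson, ratios conditional exact and shares Clopper-Pearson 95% intervals (scipy 1.17.1), which cover counting error only. Ratios needed 20 UMIs over both libraries. Calls were at 1.5-fold between treatments, and at 2-fold between classes and 5-fold between compartments in both libraries with intervals that left out 1. Thinning to 2000 UMIs left out 5 navitoclax and 9 vehicle AT2-like cells and 276 and 306 fibroblasts. The ratio code was tested on simulated data. Named were the 10 factors, up to 3 genes per list ranked by absolute log2 ratio among those with 50 UMIs, the 3 nearest profiles per factor, and annotated genes within 50 kb with 20 UMIs. Members, gene lists and gate markers were chosen with earlier results of these data known.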

Additional observations from a re-analysis of the deposited data

Results flagged for a closer look

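Foxa2 lay on opposite sides of 1 in 2 cell classes. The navitoclax over vehicle ratio was 2.25 (1.32 to 3.92) in alveolar fibroblast-like cells and 0.925 (0.889 to 0.962) in AT2-like cells. With 1 library per group the difference between the classes was not tested. The fibroblast value rests on 42 and 23 UMIs, and Foxa2 there was at 3.30% and 1.36% of its AT2-like level, beside 1.27% and 0.921% for Sftpc. The part of free RNA in it was not tested.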

How the results depend on the processing

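Of 94 navitoclax over vehicle ratios with enough UMIs, 37 had intervals that left out 1. Under 391 alternatives of these, 5 values in 4 results changed sign and 40 moved beyond their interval. The log2 ratio that was above 0 for Nkx2-1 in club and secretory-like cells was -0.20 after thinning to 2000 UMIs and -0.045 as a mean over cells, and that of Irx1 there was -0.42 after thinning. Nkx2-1 in alveolar fibroblast-like cells was at -0.063 with doublets kept, and Tcf21 in mesothelial-like cells at -0.35 without the highest cell. The cause was not tested. The number of factors past 1.5-fold was 1 in AT2-like cells, and 2 with doublets kept or without a minimum of UMIs. It was 2 in pooled fibroblasts, and 1 with up to 30% mitochondrial UMIs or with doublets kept. In AT2-like cells, over 10 alternatives, Irx1 ran from 1.59 to 1.62, Irx2 from 1.15 to 1.23 and Cebpa from 0.783 to 0.825. The 9 compartment calls held under each of 9 alternatives, with smaller ratios when doublets were kept. Depth groups and clusters within AT2-like cells were added after seeing the data. Cells between 15% and 30% mitochondrial UMIs had no doublet call, and the cluster alternative gave no transitional-like or fibrotic class. No paired analysis was possible because each group has 1 library.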
